A study of Danio rerio with 6 samples.

Results

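Tissue-specific splicing regulators are RNA-binding proteins that decide, in muscle, heart and nerve cells, which exons of a pre-mRNA are kept. The genes examined here encode proteins of the Rbfox, Rbm24, Celf and Mbnl families, chosen by gene symbol from a list of 10 names that was drawn up with earlier results of these same libraries in view, so that their values are given as a description. Of the 10 names, 9 matched a row each among the 23000 genes of the deposited table. The tenth, rbm20, the gene of the main regulator of titin splicing in the mammalian heart, is not analysed here. All 9 genes passed the filter on low counts.

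RNA was sequenced in bulk from wild-type zebrafish atrial cardiomyocytes (CMs) at 48 and 72 hours post fertilization (hpf), in 6 libraries, 3 for each stage. No other genotype and no agent separated the groups. The CMs were sorted from pooled, dissected hearts that carried 3 reporters, myh6:mTagBFP2 for atrial CMs, myh7:mCherry-NTR for those of the ventricle and 7XTCF-Sia:eGFP for Wnt/β-catenin activity, and the gate took bright mTagBFP2 cells without eGFP and with little or no mCherry. Replicates 1 and 2 of each stage hold cells from both sorters used, and replicate 3 holds cells from only one of them.

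Rbfox proteins bind the RNA motif UGCAUG in introns and, depending on which side of an exon they bind, promote or block its inclusion. Rbm24 promotes the inclusion of muscle exons and, in zebrafish, rbm24a is needed for sarcomere assembly in the heart. Celf1 and the Mbnl proteins act on many of the same exons in opposite directions, and in the mouse heart their balance shifts as embryonic splice forms give way to adult ones. The counts used here are totals per gene, so they measure the RNA of the regulators and of their target genes and not the inclusion of any exon.

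The library totals ranged from 3577234 to 5629941 counts, and levels are given as CPM, counts scaled to a common library total with TMM factors, which correct for differences in composition. A floor of 3 counts, the upper limit that a count of 0 allows, came to 0.535 to 0.839 CPM over the libraries and covers counting error only. The 5 CM markers (myl7, tnnt2a, actn2b, tnni1b, myh6) summed to 2910 to 4250 CPM at 48 hpf and 3710 to 4350 CPM at 72 hpf, and every one of them was above the floor in all 6 libraries. Their raw counts spanned factors of 1.08 (tnnt2a) to 1.3 (actn2b), against 1.57 for the library totals. Duplicate removal can cap the counts of abundant transcripts, and whether it limited these markers was not tested. The list sums are therefore not read as shares of cells. The sums of the ventricular and leukocyte lists did not overlap between the stages. The 6 ventricular markers held 1090 to 1810 CPM at 48 hpf and 623 to 859 at 72 hpf, with irx4a at 0 counts throughout, and the 7 leukocyte markers held 286 to 659 and 0 to 61.2 CPM. Most of the ventricular sum in every library was myh7 and myh7l, both lower without overlap. The stages overlapped for irx1a, nkx2.7 and hey2, and the estimate of hey2 was higher at 72 hpf (log2 fold change 2.32). The authors saw a low signal of the myh7 reporter in the atrium as well. The sums of the endothelial, epicardial, erythrocyte, skeletal muscle, and fibroblast and mural lists overlapped between the stages. Single members of the endothelial and skeletal muscle lists did not. The gene fli1a had 152, 333 and 165 counts at 48 hpf and 0 in every 72 hpf library. For myod1 the counts were 144, 79 and 29 against 0, 1 and 1. Without overlap, tie1 and actc1b also lay lower at 72 hpf, and nfatc1 and mylpfa lay higher. Of all genes that passed the filter on low counts, 9.32% lay lower without overlap and 7.24% higher. The counts of tie1 were 49, 1 and 4 at 48 hpf against 0 in every 72 hpf library. Its separation thus rested on 1 count in replicate 2, under the floor. Most of the skeletal muscle sum in every library was ckma and ckmb. In bulk RNA, fewer cells of a type and less RNA per cell cannot be told apart.

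The regulators fell into 3 kinds by their values. The genes rbm24a, rbfox2, celf1 and mbnl2 were well covered in every library, with 652 counts or more. One gene, rbfox3a, was abundant at 48 hpf and all but missing at 72 hpf. The remaining genes, rbfox1, rbfox3b, rbm24b and mbnl1, were low or uneven among libraries of the same stage. In edgeR's quasi-likelihood test, adjusted over the 16100 genes tested by the Benjamini-Hochberg method, 0 of the 9 were called, where a call needed both an adjusted p-value under 0.05 and a change of more than 1.5-fold. The same rule called 0.00621% of all genes, a single gene. At an unadjusted p-value below 0.05, 2 of the 9 were lower at 72 hpf (rbfox3a and rbfox3b), against 5.61% of all genes, and 1 was higher (mbnl2), against 3.12%. The 3 libraries of 72 hpf all lay below those of 48 hpf for 3 of the 9 (rbfox2, rbfox3a and rbfox3b), against 9.32% of all genes, and all lay above for mbnl2 alone, against 7.24%. DESeq2, the tool of the study's own methods, gave an adjusted p to 8 of the 9 and to 14928 genes in all. It called 1 of the 8 lower (rbfox3a), against 3.02% of those genes, and 1 higher (mbnl2), against 1.25%. Limma with voom and library quality weights called 0 of the 9, and 0 of all genes in either direction. The median log2 fold change of the 9 genes was -0.17, and that of all genes tested was -0.02.

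**Figure D1:**
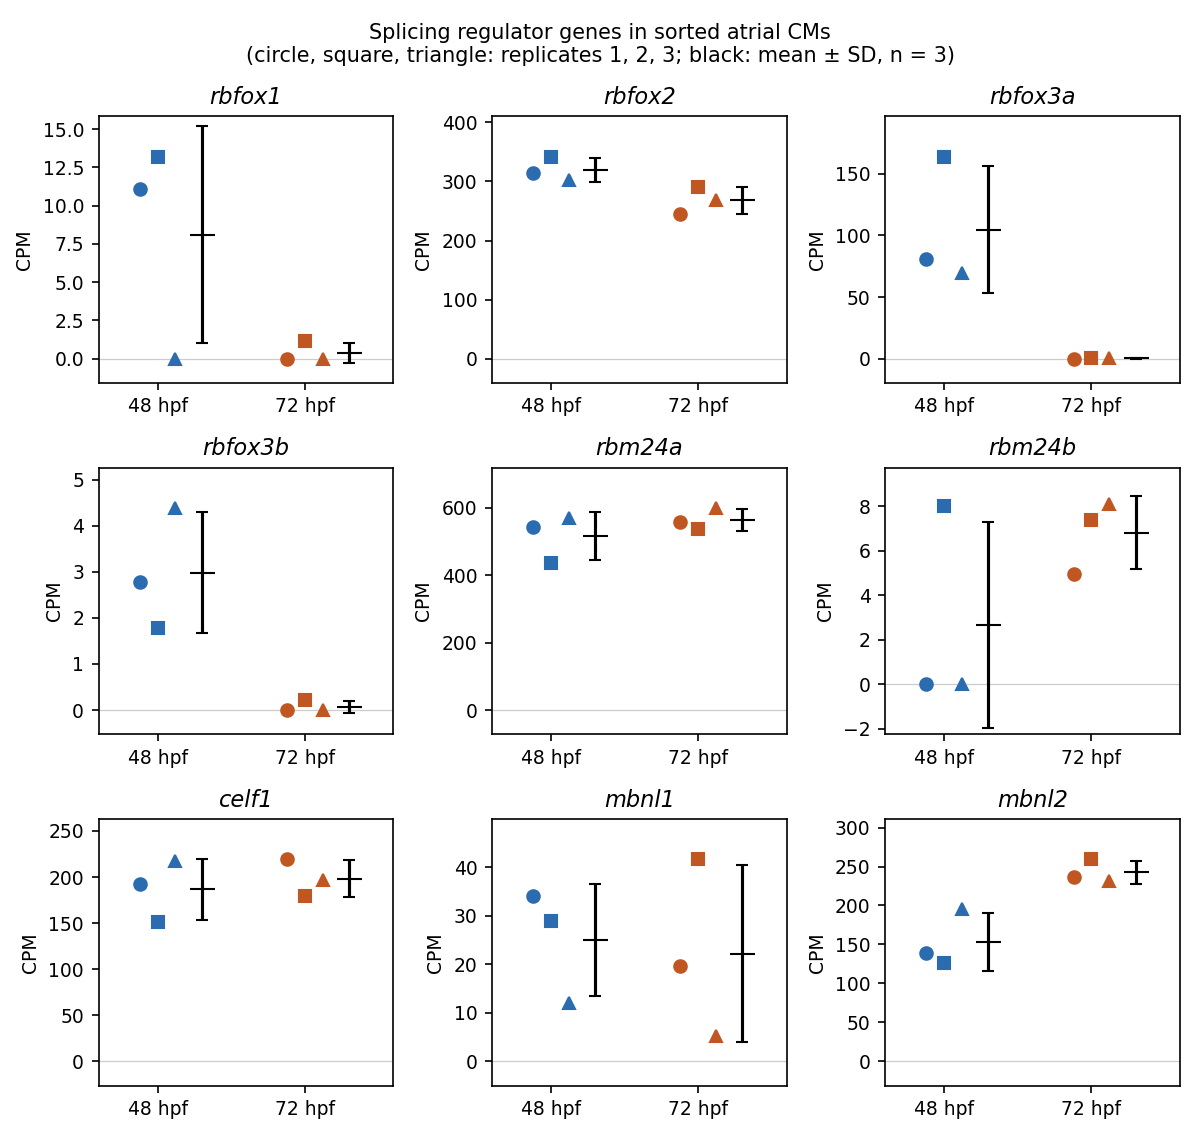
Level of each of the 9 regulator genes in CPM (y axis, its own linear scale in each panel) in the 3 libraries of 48 hpf (blue) and of 72 hpf (orange), with replicates 1, 2 and 3 as circle, square and triangle and the mean ± SD of each stage in black. The rbfox3a libraries lie between 69.6 and 164 CPM at 48 hpf and at or below 0.447 CPM at 72 hpf, and mbnl2 lies higher in every 72 hpf library than in any 48 hpf library.

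The Rbfox genes come first, and among them rbfox3a (ENSDARG00000010083, chromosome 12 of danRer11 from 32729470 to 33251465, plus strand). Its mammalian counterpart encodes NeuN, the nuclear antigen by which neurons are commonly identified. The gene had 380, 918 and 254 counts in replicates 1, 2 and 3 at 48 hpf against 0, 2 and 1 at 72 hpf. Every 72 hpf library was at or under the floor of 3 counts, and the lowest 48 hpf library was far above it. In CPM the libraries held 80.9, 164 and 69.6 at 48 hpf against 0, 0.447 and 0.280 at 72 hpf. Summed over the stages, 1552 counts stood against 3, a ratio of 470 after scaling by library size (95% interval 161 to 2280, counting error only).

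The fitted log2 fold change (log2FC, 72 hpf over 48 hpf, given ± its standard error) of rbfox3a was -8.62 ± 0.76, which depends in part on the small prior count that edgeR adds to values near 0. Its adjusted p-value was 0.0517 in edgeR, just above the threshold. Only 1 of the 16100 genes tested had a smaller p-value. DESeq2 gave an adjusted p of 1.48e-17 for rbfox3a and voom one of 0.236, edgeR without the filter on low counts gave 0.00566 and so called the gene, and in the 6 edgeR fits that each left out a library the adjusted p lay between 0.0660 and 0.349, with the gene lower at 72 hpf in all of them. With 3 libraries on each side, the smallest p of an exact permutation test is 0.1. No other gene of the table overlaps rbfox3a on either strand.

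Genes above the floor in every library of one stage and at or under it in every library of the other were tallied. Of the genes tested, 189 (1.17%) were above 3 counts in all 48 hpf libraries and at or under 3 in all 72 hpf libraries, and 19 (0.118%) showed the reverse pattern. This comparison was chosen after the values were seen. Among the 189 genes rbfox3a had the largest summed count at 48 hpf, and rbfox3b was the only other regulator among them.

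The second rbfox3 gene, rbfox3b (ENSDARG00000074310, chromosome 3 from 8323586 to 8542577, minus strand), was counted far less often. It had 13, 10 and 16 counts at 48 hpf against 0, 1 and 0 at 72 hpf. The stages again did not overlap, although the counts were close to the floor. The summed counts of 39 and 1 gave a ratio of 35.4 with a 95% counting interval of 6 to 1430. Its log2FC was -4.84 ± 1.96 (adjusted p = 0.561, edgeR), and DESeq2 set no adjusted p for it. Another protein-coding gene overlaps rbfox3b on the same strand, and reads over exons of both were left out of the counting.

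For rbfox1 (ENSDARG00000014746, chromosome 3 from 27982269 to 28428198, minus strand), which in mammals is expressed in neurons, heart and skeletal muscle, the counts were 52, 74 and 0 at 48 hpf against 0, 5 and 0 at 72 hpf. Replicate 3 at 48 hpf held none, so the stages overlapped. Its log2FC was -4.32 ± 2.43 (adjusted p = 0.634, edgeR) and moved to -8.17 without replicate 2 at 72 hpf, the one library of that stage with a count.

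In contrast to these 3 genes, rbfox2 (ENSDARG00000052182, chromosome 6 from 296130 to 342216, plus strand) was well expressed at both stages. In zebrafish, rbfox2 acts together with rbfox1l in the splicing of skeletal and cardiac muscle transcripts. It had 315, 342 and 302 CPM at 48 hpf against 245, 290 and 269 at 72 hpf. The stages did not overlap, yet the gap between the lowest 48 hpf and the highest 72 hpf library was smaller than the spread within either stage. The means were 320 ± 20.0 and 268 ± 22.9 CPM (SD, n = 3), with a log2FC of -0.25 (95% interval -0.53 to 0.03, adjusted p = 0.582 from edgeR).

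The partner gene rbfox1l, which is not among the 9, was examined for the composition of the family. It had 343, 223 and 348 CPM at 48 hpf against 385, 360 and 477 at 72 hpf, without overlap (log2FC 0.42 ± 0.20, adjusted p = 0.591 from edgeR). Of all counts that fell on the 5 Rbfox genes, rbfox3a held 10.7%, 22.0% and 9.61% in the 48 hpf libraries, with exact 95% binomial intervals of 9.74 to 11.8%, 20.7 to 23.3% and 8.51 to 10.8%. In the 72 hpf libraries its share was 0%, 0.0686% and 0.0375%, with upper limits of 0.127%, 0.248% and 0.209%. These intervals and limits cover counting error only and not the spread between libraries. The share of rbfox1l was 41.3 ± 9.75% at 48 hpf and 60.1 ± 4.45% at 72 hpf (SD, n = 3), and that of rbfox2 was 43.2 ± 2.37% and 39.8 ± 4.29%. Shares of this kind depend on the transcript lengths of all genes in the family. This dependence does not cancel between libraries in which the make-up of the family differs. The 5 genes together held 753, 744 and 724 CPM at 48 hpf against 629, 652 and 746 at 72 hpf, so that the family totals of the stages overlapped.

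**Figure D2:**
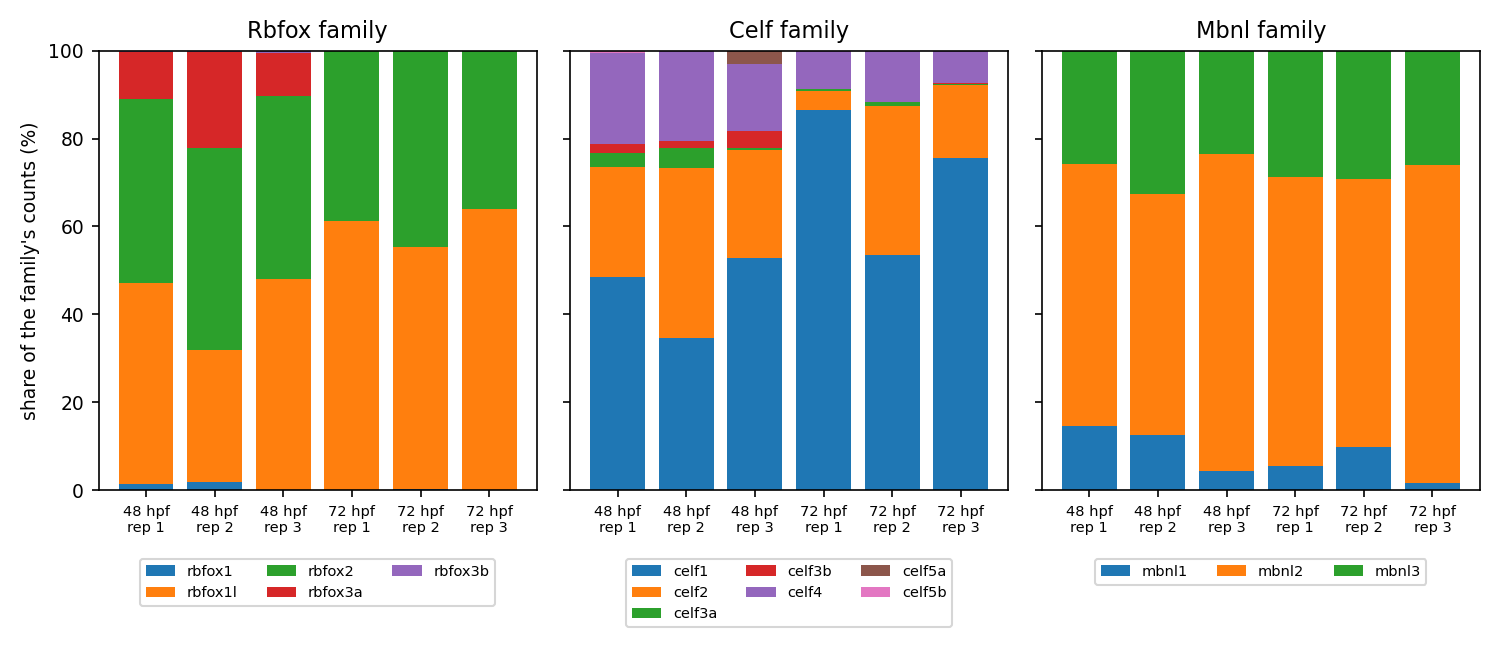
Share of the counts on the Rbfox, Celf and Mbnl genes held by each gene (y axis, percent; stacked bars) in each of the 6 libraries. The rbfox3a segment, between 9.61% and 22.0% at 48 hpf, is not visible at 72 hpf, where rbfox1l and rbfox2 make up nearly all Rbfox counts. The celf1 share of the Celf counts lies higher at 72 hpf, although the nearest libraries of the stages held 52.9% and 53.5%. The level of celf1 itself overlapped between the stages.

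Because rbfox3a marks neurons in other vertebrates, its counts were set beside 14 neuronal markers. The summed level of the list was 283, 354 and 156 CPM in the 48 hpf libraries, in the order of their replicate numbers, and 200, 211 and 92.6 CPM in those of 72 hpf. The levels of this sum overlapped between the stages, whereas those of rbfox3a did not. Most of the sum in every library came from elavl4 and tubb5, with 102 and 43.2 of the 200 CPM in replicate 1 at 72 hpf. The overlap of the sum therefore rests largely on these genes. Within the list, elavl3 and stmn1b were lower in every 72 hpf library than in any of 48 hpf, and the others tested overlapped. Of all genes tested, 9.32% lay lower without overlap. The levels of stmn1b nearly touched, with 14.7, 38.3 and 17.8 CPM at 48 hpf against 14, 8.94 and 0 at 72 hpf. At 48 hpf 3 of the 14 markers, and at 72 hpf 6 of them, were at or under 3 counts in every library. The gene elavl3, which encodes the pan-neuronal RNA-binding protein HuC, had 135, 376 and 51 counts at 48 hpf against 0, 0 and 0 at 72 hpf, a ratio of 170 when 3 counts are allowed over the 72 hpf group. The lower 95% limit of the ratio was 138, from counting error only. In both elavl3 and rbfox3a replicate 2 was the highest and replicate 3 the lowest of the 48 hpf libraries. The endothelial list (242, 393 and 125 CPM), the epicardial list (408, 719 and 300 CPM) and the library totals had the same order at 48 hpf. The elavl3 paralog elavl4, the gene of the neuronal protein HuD, had 407, 385 and 137 counts at 48 hpf against 473, 405 and 150 at 72 hpf, with no separation of the stages. The leukocyte list held 321, 286 and 659 CPM at 48 hpf against 1.51, 61.2 and 0 at 72 hpf, where 3 of its 7 markers were at or under 3 counts in every library. The part of other cell types in the rbfox3a difference, and in those of the other genes given below, was not tested.

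**Figure D3:**
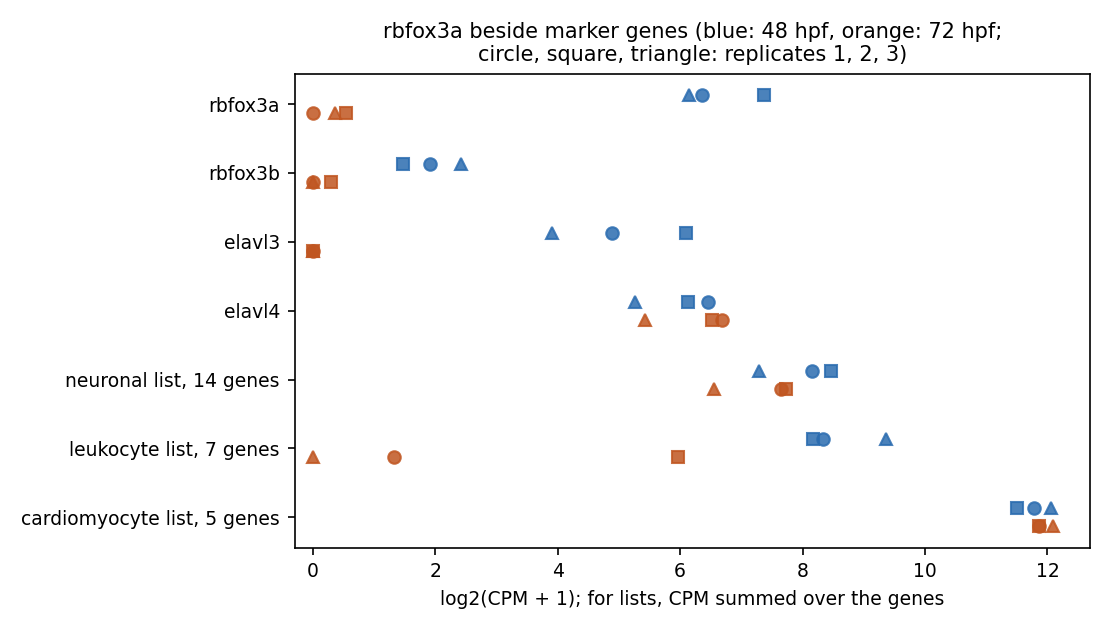
Levels of rbfox3a, rbfox3b, elavl3 and elavl4 and the summed levels of the neuronal, leukocyte and CM marker lists, as log2(CPM + 1) on the x axis, for the 48 hpf (blue) and 72 hpf (orange) libraries with replicates 1, 2 and 3 as circle, square and triangle. The stages stand apart for rbfox3a, rbfox3b, elavl3 and the leukocyte list, and they overlap for elavl4, the neuronal list and the CM list.

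The Rbm24 genes showed a steady and a scarce paralog. The gene rbm24a (ENSDARG00000102995, chromosome 19 from 46113828 to 46148977, plus strand) had 2547, 2454 and 2082 counts at 48 hpf against 2577, 2397 and 2142 at 72 hpf. The stages overlapped. The mean level was 517 ± 70.2 CPM at 48 hpf and 564 ± 32.3 CPM at 72 hpf (SD, n = 3), with a log2FC of 0.13 (95% interval -0.17 to 0.43, adjusted p = 0.849 from edgeR).

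The raw counts of rbm24a spanned a factor of 1.24 between libraries whose totals spanned a factor of 1.57, and the deepest library, replicate 2 at 48 hpf, had the lowest CPM of the gene, 437. The sarcomere gene tnnt2a had an even narrower span of 1.08 in raw counts. The authors removed duplicates from single-end reads, which can cap the counts of abundant transcripts, and whether this limited rbm24a was not tested. Among 11035 genes with a mean normalized count above 50, those most like rbm24a over the 6 libraries were lbh, mrps31 and usp10 (Pearson's r of log2(CPM + 1) of 0.998, 0.997 and 0.996). This is a description over libraries that share their depth with rbm24a. The values are the highest of 11035 correlations over 6 libraries, so an r near 1 can come from the choice alone.

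For rbm24b (ENSDARG00000031809, chromosome 16 from 53455638 to 53475519, plus strand) the counts were 0, 45 and 0 at 48 hpf against 23, 33 and 29 at 72 hpf. It was found in all 72 hpf libraries but in only 1 of the 3 at 48 hpf, where replicate 2 held as much as the later stage. The log2FC was 1.33 ± 2.04 (adjusted p = 0.927, edgeR) and was 7.85 without that library. The Rbm24 counts were almost wholly rbm24a, at 99.4 ± 1.04% at 48 hpf and 98.8 ± 0.265% at 72 hpf (SD, n = 3).

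Among the Celf genes, celf1 (ENSDARG00000005315, chromosome 7 from 38535934 to 38570940, minus strand) was at similar levels at both stages. It encodes the CUG-binding protein that in mouse heart favors embryonic splice forms. The gene had 192, 151 and 217 CPM at 48 hpf against 219, 179 and 197 at 72 hpf, and the stages overlapped throughout. The log2FC was 0.09 (95% interval -0.31 to 0.49, adjusted p = 0.943 from edgeR), and it was -0.04 without replicate 2 at 48 hpf. A sense-intronic transcript overlaps celf1 on the same strand.

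Of the other Celf genes, taken from the list of further splicing regulators, celf4 and celf3b were lower in every 72 hpf library than in any of 48 hpf, and celf2 and celf3a overlapped. The share of all genes tested that lay lower without overlap was 9.32%. In mammals Celf3, Celf4 and Celf5 are mainly neuronal. The gene celf4 had 81.8, 89.4 and 62.5 CPM at 48 hpf against 22.2, 39.5 and 19.3 at 72 hpf, without overlap, at a log2FC of -1.52 ± 0.36 (adjusted p = 0.369, edgeR, and 0.00125, DESeq2). The gene celf3b had 40, 36 and 58 counts at 48 hpf against 0, 0 and 1 at 72 hpf, a ratio of 122 with a 95% counting interval of 21.5 to 4840 (adjusted p = 0.410, edgeR, and 0.00272, DESeq2). The counts of celf3a were 58, 115 and 5 at 48 hpf against 4, 11 and 2 at 72 hpf, where the stages overlapped. For celf2 the levels were 99.9, 168 and 101 CPM at 48 hpf against 11.2, 114 and 43.9 at 72 hpf, again with overlap and with a wide spread at 72 hpf. The counts at 48 hpf were 0, 0 and 47 for celf5a and 10, 0 and 0 for celf5b. Both had 0 counts in every 72 hpf library. The share of celf1 in the counts of the 7 Celf genes was 48.4%, 34.6% and 52.9% at 48 hpf against 86.5%, 53.5% and 75.5% at 72 hpf, nearly touching. The family total was 396, 435 and 411 CPM at 48 hpf against 254, 335 and 261 at 72 hpf, without overlap.

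The Mbnl genes, whose proteins are sequestered by expanded CUG repeats in myotonic dystrophy, include the one regulator of the 9 that was higher in every 72 hpf library. The gene mbnl2 (ENSDARG00000018460, chromosome 1 from 2101541 to 2217861, plus strand) had 652, 709 and 717 counts at 48 hpf against 1097, 1160 and 825 at 72 hpf. Scaled by library size these were 139, 126 and 196 CPM at 48 hpf against 237, 259 and 231 at 72 hpf. Every 72 hpf library was above every 48 hpf library, the nearest being replicate 3 of each stage. The means were 154 ± 37.4 and 242 ± 15.0 CPM (SD, n = 3), with a log2FC of 0.66 ± 0.19 (95% interval 0.22 to 1.09). The adjusted p-value was 0.411 in edgeR and 0.0125 in DESeq2, which called the gene, and 0.225 in voom. In the 6 fits without a library the log2FC lay between 0.54, without replicate 2 at 48 hpf, and 0.87.

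The paralog mbnl3, which is not among the 9, also lay higher in every 72 hpf library, with 60.0, 74.8 and 64.1 CPM at 48 hpf against 103, 124 and 82.5 at 72 hpf (log2FC 0.64 ± 0.23, adjusted p = 0.501 from edgeR and 0.0971 from DESeq2). In contrast, mbnl1 (ENSDARG00000052978, chromosome 2 from 47708853 to 47829287, plus strand) was uneven within each stage. It had 160, 163 and 44 counts at 48 hpf against 91, 186 and 19 at 72 hpf, and replicate 3 was the lowest at both stages. Its log2FC was -0.17 with a 95% interval of -2.03 to 1.68 (adjusted p = 0.983, edgeR), and its sign turned without replicate 1 at 48 hpf (0.11) or without replicate 3 at 72 hpf (0.29). The 3 Mbnl genes together held 233, 230 and 273 CPM at 48 hpf against 360, 425 and 319 at 72 hpf, without overlap. Within the family the shares of the 3 genes overlapped between the stages.

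**Figure D4:**
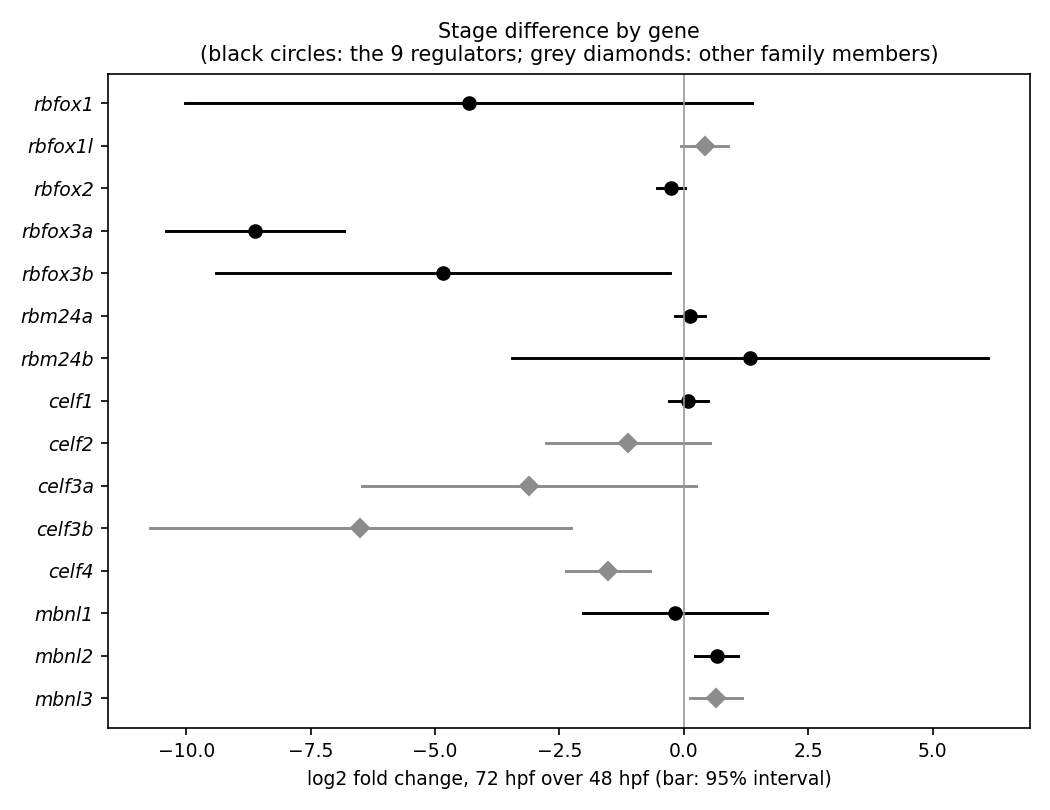
Log2 fold change of 72 hpf over 48 hpf (x axis) with its 95% interval for the 9 regulators (black circles) and other members of their families (grey diamonds), from edgeR; values of genes near 0 counts depend on the prior count. Among the 9, the intervals of rbfox3a, rbfox3b and mbnl2 do not include 0, and those of rbm24a, celf1 and rbfox2 are narrow and include it. Among the other family members, those of celf3b, celf4 and mbnl3 do not include 0. The intervals are not adjusted for the number of genes tested.

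Further regulators of splicing were examined as a list of 52 names, of which 48 were in the table and 44 were tested. The edgeR test called 0 of the 44, against 0.00621% of all genes, and voom called 0, as it did of all genes. DESeq2 called 4 lower and 0 higher of the 42 to which it gave an adjusted p, against 3.02% and 1.25% of all such genes. At an unadjusted p-value below 0.05 in edgeR, 6 of the 44 were lower (elavl3, tia1, celf4, celf3b, ptbp1b and ptbp3), against 5.61% of all genes, and 1 was higher (mbnl3), against 3.12%. The list's median log2FC was -0.07. Without overlap, 6 of the 44 lay lower at 72 hpf, against 9.32% of all genes, and 3 lay higher, against 7.24%. The 4 that DESeq2 called lower were elavl3, celf3b, celf4 and tia1. The gene tia1 encodes a U-rich RNA-binding protein that helps recruit the U1 particle to weak splice sites and takes part in stress granules. It had 112, 124 and 108 CPM at 48 hpf against 59.8, 52.1 and 68.8 at 72 hpf, with a log2FC of -0.93 ± 0.20 (adjusted p = 0.320, edgeR, and 9.17e-04, DESeq2). The polypyrimidine tract binding protein genes ptbp1b and ptbp3 lay lower with no overlap, although the nearest libraries of the stages were equal at the 3 digits given here. For ptbp1b the levels were 148, 215 and 206 CPM at 48 hpf against 89.6, 148 and 121 at 72 hpf. For ptbp3 the levels were 120, 127 and 169 CPM and 83.2, 120 and 88.7 CPM. The lowest fitted value in the list was that of elavl3, at -10.35. The genes elavl3 and elavl4 are also on the neuronal marker list. The highest was that of the epithelial regulator esrp1, at 7.59, and it rested on 58 counts in replicate 3 at 72 hpf and 0 in the other 5 libraries.

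Genes whose transcripts these proteins are known to splice in striated muscle were examined as totals per gene. Of 20 names, 19 were in the table and 17 were tested, and 0 were called by edgeR, by DESeq2 or by voom. Among all genes, edgeR called 0.00621% and voom 0, and DESeq2 called 3.02% lower and 1.25% higher of those with an adjusted p. The genes tnnt2a and actn2b are also on the CM marker list. At an unadjusted p-value below 0.05 in edgeR, 1 of the 17 was higher, against 3.12% of all genes, and 0 were lower, against 5.61%. The estimate was positive for 14 of the 17 and for 48.5% of all genes tested, and the list's median log2FC was 0.23, beside the -0.02 of all genes. Of the CM markers outside this list, log2FC was 0.059 for myl7, 0.181 for myh6 and -0.003 for tnni1b. For the atrial markers nppa, nr2f1a and tbx5a it was 0.069, 0.097 and 0.15. Whether the target genes differed from CM genes at large was not tested. Raw counts of tnnt2a, pdlim5b and actn2b spanned factors of 1.08, 1.16 and 1.3, against 1.57 for the library totals. Those of other genes in the list spanned more, such as 3.06 for obscnb. Whether duplicate removal capped the counts of the abundant genes, and so moved their estimates, was not tested. The gene at an unadjusted p-value below 0.05 in edgeR was ryr2b, which encodes a ryanodine receptor, the calcium release channel of the sarcoplasmic reticulum. It had 754, 719 and 928 CPM at 48 hpf against 1040, 1110 and 1110 at 72 hpf, without overlap, and a log2FC of 0.44 ± 0.12 (adjusted p = 0.405, edgeR, and 0.0124, DESeq2, which did not call it because of its fold change). The titin gene ttn.1 had 1440, 1580 and 1720 CPM at 48 hpf against 2400, 2100 and 1550 at 72 hpf, with overlap. The highest estimate in the list was 0.54 for tpm1 (adjusted p = 0.729, edgeR). The lowest was that of the kinase gene camk2d1, with 23, 19 and 0 counts at 48 hpf and 0 in every 72 hpf library.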

How the data were processed

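The authors used Trimmomatic 0.39 for trimming (single-end reads), STAR 2.7.10a for alignment to danRer11 with Ensembl genes, Picard 3.0.0 for duplicate removal and featureCounts 2.0.4 for counting over exons. They also dropped mitochondrial, ribosomal and multi-mapping reads and those over several genes. Strand use was not stated. The deposited values are these raw counts per gene, not normalized, with positions on danRer11. Quality control of the RNA was skipped because of its low amount. Of 23000 genes, 1678 had no count.

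The labels gave each library's stage. Genes with a mean TMM-normalized count above 5 were tested with edgeR 4.0.16 in R 4.3.3 (robust quasi-likelihood test, stage alone). Standard errors were derived from the log2 fold change and its F statistic. Alternatives were DESeq2 1.42.0, limma 3.58.1 with voom and library quality weights (called voom here), RLE factors and 2 other filters. Further ones were no fold change threshold, a replicate block, replicates 1 and 2 only, and each library left out. The study's general statement is that experiments used independent batches of animals. The cells of the replicates were collected over several sorting sessions, and which batch or session fed which library is not given in the sources used here, so p-values measure the spread between these libraries, which may be partly technical. The files give no exon lengths, so levels were not ranked between genes.

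The regulators and lists were chosen with earlier results of these data known. Named from the further lists were genes at an unadjusted p-value below 0.05 and those with the highest and lowest log2 fold change. Other family members and ttn.1 were named after their values were seen.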

Additional observations from a re-analysis of the deposited data

How the results depend on the processing

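Over 13 alternative fits, 114 log2 fold changes of the 9 regulators were obtained, and 3 of them changed sign. These were celf1 at -0.04 without replicate 2 at 48 hpf, and mbnl1 at 0.11 without replicate 1 at 48 hpf and 0.29 without replicate 3 at 72 hpf. The causes of the sign changes were not tested. No value was obtained where the filter on low counts dropped a gene. This held for rbfox1 and rbfox3b with another filter, and for rbfox3b without replicate 3 at 48 hpf. DESeq2 called 1 regulator higher and 1 lower, 4 of the further regulators lower, and 186 genes higher and 451 lower in all. With no filter on low counts, edgeR called rbfox3a lower (adjusted p = 0.00566), the 1 regulator called, and 2 genes higher and 9 lower in all. No gene was called in either direction (0) with voom, the replicate block or replicates 1 and 2 only. With a library left out, 0 to 1 were called higher and 0 lower. The count of regulators lower at an unadjusted p-value below 0.05, 2 in the main edgeR fit, also moved. It was 1 with either other filter and with replicates 1 and 2 only, and 1 to 2 with a library left out. In voom it was 3 and in DESeq2 4. In the fits without a library the estimate ranged from -9.43 to -8.03 for rbfox3a, -6.73 to -4.36 for rbfox3b, -8.17 to -3.76 for rbfox1, -0.31 to -0.19 for rbfox2, 0.02 to 0.20 for rbm24a, 0.75 to 7.85 for rbm24b, -0.04 to 0.22 for celf1, -1.0 to 0.29 for mbnl1 and 0.54 to 0.87 for mbnl2. With the replicate block, rbfox3a had a log2 fold change of -8.68 (adjusted p = 0.280). The deviations of libraries with the same number correlated at 0, 0.11 and 0, not above 0.1 in every pair, so the numbers were not read as pairs. Levels on the raw library total moved by less than 1 SD in 18 of 18 means. The planned order of the genes by level per kilobase and the protein comparison were not run. The estimates of rbfox1, rbfox3b and rbm24b are limited by counts at or under the floor in some libraries. At 48 hpf the counts were 52, 74 and 0 for rbfox1 and 0, 45 and 0 for rbm24b. The cause of this uneven spread was not tested.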
